A study of Mus musculus with 9 samples.

Results

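The genes of the glutathione and antioxidant enzyme systems were followed across the mammary cycle of the mouse. They were taken by gene symbol: every gene with a probe set of 1 symbol that starts with Gsta, Gstm, Gstp, Gstt, Gsto, Gstz, Mgst, Gpx, Prdx, Sod or Txn, together with Cat, Gclc, Gclm, Gss, Gsr, Hmox1 and Nqo1. The rule found 49 genes with 66 probe sets, out of 8251 genes named by a probe set of 1 symbol. Where a gene had several probe sets, the one with the highest mean signal over all arrays, here called the brightest, stood for it. Of the 49 genes, 47 passed the filter of a stage mean above 20 in at least 1 stage and were tested. Gsta1, with signals between 0.666 and 3.60, and Gstm6, between 1.71 and 10.3, did not pass.

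RNA of the whole inguinal mammary gland (gland No4, fat pad included) of wild type C57BL/6J females was hybridized to 9 Affymetrix MG-U74Av2 arrays. The 4 stages were puberty in virgin mice aged 6 weeks (3 arrays), pregnancy at day 14 (2 arrays), lactation at day 10 postpartum (2 arrays) and involution 4 days after weaning (2 arrays). No treatment and no altered allele is named for any of the mice. The arrays of a stage came from different females according to the methods, and p-values measure only the spread between these few animals.

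Cells make hydrogen peroxide and superoxide in respiration, in fat breakdown and when they fold secreted proteins. Superoxide dismutases turn superoxide into hydrogen peroxide, which catalase, the glutathione peroxidases and the peroxiredoxins remove. The glutathione peroxidases draw on the tripeptide glutathione and the peroxiredoxins mostly on thioredoxin, both kept reduced by NADPH, while the glutathione S-transferases couple glutathione to reactive compounds. A lactating gland secretes large amounts of protein through the endoplasmic reticulum, and its fat cells are depleted of lipid until involution, when the epithelium dies back and fat cells fill again.

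Of the 47 genes tested, 30 differed over the 4 stages by limma's moderated F test at a Benjamini-Hochberg adjusted p under 0.05. That is 63.8% of them. The same test was passed by 51.6% of all 9783 probe sets tested and by 52.9% of 7090 genes on their brightest probe set. Among the 30, the stage mean was highest at involution for 11 genes, at lactation for 10, at puberty for 7 and at pregnancy for 2. It was lowest at lactation for 13 and at puberty for 10. Of all probe sets past the F test, 21.66% were highest at involution, 44.09% at lactation, 17.69% at puberty and 16.56% at pregnancy. Lowest at lactation were 42.08% of them, and at puberty 22.35%. The count of 30 fell to 18 without lactation replicate 1, where 41.5% of all probe sets passed. Leaving out each array in turn, 14 of the 30 kept the F test call in every fit and 16 lost it in some (adjusted p 0.0503 to 0.286). Prdx3 lost it without lactation replicate 1, Gsr without lactation replicate 1 or involution replicate 1, Mgst3 without either lactation array, Txnrd1 without puberty replicate 2 or 3, Txndc12 without either pregnancy array or involution replicate 1, Txnip without either pregnancy array or lactation replicate 1, and Gstp1 without any puberty array. Gsta3, Sod1, Txndc9, Gss, Gsta2, Gstm1, Gstt1, Hmox1 and Mgst2 each lost it in 6 to 8 of these fits. Another scaling ended the F test call of Gss (deposited scale, adjusted p = 0.0884), Gstm1 (75th percentile, 0.0543), Txnip (quantile normalization, 0.0857) and Hmox1 (all of these scalings).

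Lactation held the highest stage means of some genes and the lowest of others, as it did for many of all probe sets. Prdx4, Txnrd3, Txndc5, Prdx3, Gpx2 and Txnip had their highest stage means there, and Gpx3, Cat, Gstm2, Gstz1, Mgst3 and Sod3 their lowest. In a bulk tissue fewer cells of a type and less RNA per cell cannot be told apart, and this holds for each gene below.

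**Figure D1:**
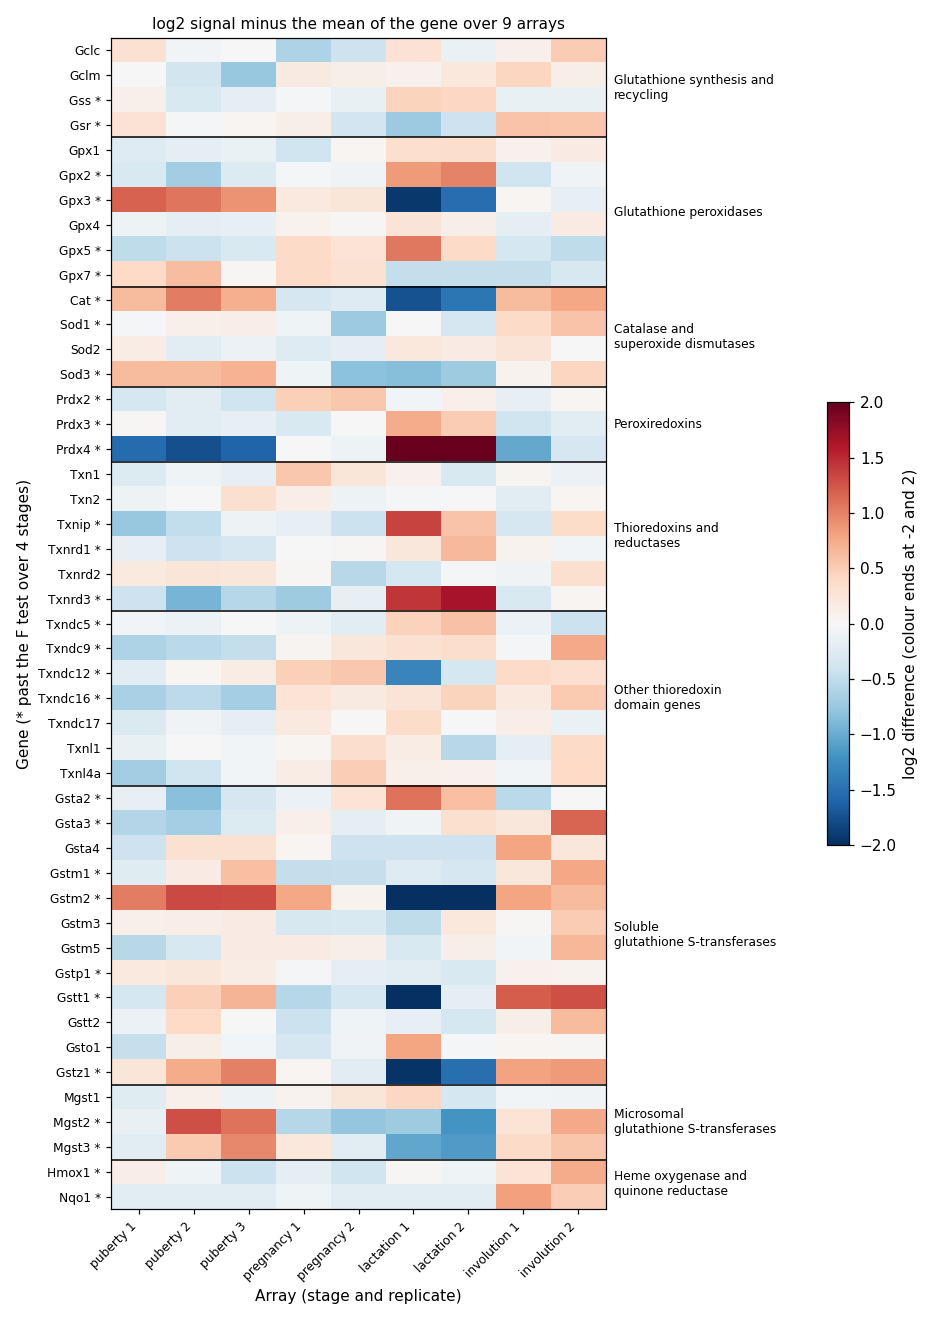
Log2 signal of the 47 tested genes on the 9 arrays, as the difference from each gene's mean over the arrays (colour, red higher and blue lower, ends at -2 and 2). Rows are genes grouped by role, with an asterisk on the 30 past the F test, and columns are arrays; the 2 lactation columns are red for Prdx4 and blue for Gstm2.

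Arrays of 1 stage correlated at 0.947 to 0.975 over log2 signals, and arrays of different stages at 0.724 to 0.935. The markers of the tissue's cell types moved with the stages. The summed signal of 11 white adipocyte markers was 17779 to 21263 at puberty, 11315 to 14893 at pregnancy, 4728 to 4788 at lactation (with Pparg at the floor) and 18376 to 20158 at involution. The 11 stroma and matrix markers summed to 15241 to 19288, 16202 to 18147, 4685 to 5711 and 10649 to 11510 in the same order. The 12 secretory and luminal markers, milk proteins among them, summed to 3165 to 4821 at puberty, 15411 to 16674 at pregnancy, 77471 to 97507 at lactation and 9515 to 12324 at involution, although 4 of the 12 fell and 6 rose from pregnancy to lactation by the test. The 9 lymphocyte markers summed to 2540 to 2734, 935 to 1290, 374 to 742 (with Cd3g, Cd8a and Cd2 at the floor) and 2989 to 3499 from puberty to involution, and the 13 macrophage markers to 5848 to 6818, 6185 to 6551, 3039 to 4189 and 10278 to 13220. The 7 basal epithelial markers summed to at most 993 at puberty and to 3125 to 3383 at pregnancy, with Krt5 and Krt14 at the floor in both. They summed to 2263 to 2270 at lactation and to 1562 to 1727 at involution, with Krt14 at the floor at involution. Skeletal muscle markers, 14 genes, summed to between 12736 and 32532 at puberty and to at most 1622 at any later stage.

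Many antioxidant genes are known targets of Nfe2l2, which binds an antioxidant response element with the core TGACNNNGC. RefSeq promoters of the build GRCm38.p6, from 250 bases before to 50 after a start of the gene, were given for 41 of the 49 genes. Some genes had several promoters. The core was found on either strand in 13.2% of the 53 promoters of these genes and in 12.4% of all 32851. Counted by gene, with a match in any promoter, it was found in 7 of the 41 (17.1%), and in 14% of all 27025 genes with a promoter. Of these 7 genes, 4 (Txndc5, Txnrd1, Sod1 and Gsta3) passed the F test, which 51.6% of all probe sets passed, and Gclm, Gstm5 and Mgst1 did not. The windows are printed so that the match can be set beside the signals below; each holds the core in capitals with 10 bases on either side, read 5′ to 3′ along the strand named. No promoter was given for Gstt2, Txnl1, Hmox1, Gclc, Gsr, Sod3, Txnl4a and Gsta4.
Txndc5, chr13:38528034-38528062, minus strand: gcctcgccgcTGACGTGGCgctagccgcc
Txnrd1, chr10:82859104-82859132, minus strand: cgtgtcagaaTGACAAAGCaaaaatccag
Sod1, chr16:90220696-90220724, minus strand: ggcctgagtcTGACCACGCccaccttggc
Gsta3, chr1:21240454-21240482, plus strand: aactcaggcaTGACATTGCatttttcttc
Gclm, chr3:122245413-122245441, minus strand: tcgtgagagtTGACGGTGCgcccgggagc
Gstm5, chr3:107895802-107895830, plus strand: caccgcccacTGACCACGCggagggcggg
Mgst1, chr6:138140461-138140489, minus strand: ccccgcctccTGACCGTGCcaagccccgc

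The matches began 42 (Gstm5) to 138 (Txndc5) bases upstream of the start. They are matches of letters in these windows, and binding was not measured.

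Glutathione is built by the ligase of Gclc and Gclm and by the synthase Gss, and is kept reduced by the reductase Gsr. Gsr gave signals of 221, 177 and 186 at puberty, 198 and 138 at pregnancy, 109 and 137 at lactation, and 270.1 and 265 at involution (F test adjusted p = 0.0117). Both involution arrays lay above the 7 others. Gsr rose from lactation to involution by 1.13 on the log2 scale (SE 0.215, limma adjusted p = 0.00309), a call that held in all 22 alternative fits. Gss had signals of 180.3, 137 and 148 at puberty, 166 and 152 at pregnancy, 229 and 225 at lactation, and 151 and 152 at involution, so the lactation pair stood above all others (F test adjusted p = 0.0470). Gss rose by 0.51 from pregnancy to lactation (SE 0.174, adjusted p = 0.0427) and fell by 0.58 to involution (SE 0.174, adjusted p = 0.0246). The rise lost its call without puberty replicate 2 or 3 or any pregnancy or lactation array (adjusted p 0.0520 to 0.152), and the fall without any lactation or involution array (0.0517 to 0.0638). The second Gss probe set, dim and at 17.5 and 21.9 in lactation, gave -0.56 and 1.16, neither called. Neither Gclc (F test adjusted p = 0.0917) nor Gclm (0.123) differed by the test, and their stage means ran from 55.1 to 98.1 and from 74.5 to 116.

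The 6 glutathione peroxidases went separate ways. The F test, passed by 51.6% of all probe sets, called 4 of them, and not Gpx1 (adjusted p = 0.0507) or Gpx4. Gpx3, the secreted plasma form, gave 4990, 4627 and 4118 at puberty, 2520 and 2618 at pregnancy, 581 and 772 at lactation, and 2269 and 1971 at involution (F test adjusted p = 3.42e-05). The ranges of puberty, pregnancy, lactation and involution did not overlap. Gpx3 fell by 0.83 from puberty to pregnancy (SE 0.162, adjusted p = 0.0126) and by 1.94 from pregnancy to lactation (SE 0.177, adjusted p = 0.000120), then rose by 1.66 to involution (SE 0.177, adjusted p = 0.000165). Between puberty and involution the change was -1.11 (SE 0.162, adjusted p = 0.00503). Its changes into and out of lactation held in all 22 alternative fits. The fall from puberty to pregnancy lost its call without pregnancy replicate 1 or 2 (adjusted p 0.0897 to 0.0962), and the difference between puberty and involution without involution replicate 2 (0.0605).

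Gpx2, known from the epithelium of the gut, behaved the opposite way at lactation. Its signals were 48.7, 37.1 and 49.5 at puberty, 58.3 and 56.9 at pregnancy, 108 and 119 at lactation, and 45.6 and 57.4 at involution, with the lactation pair above all others (F test adjusted p = 0.00586). Gpx2 rose by 0.98 into lactation (SE 0.248, adjusted p = 0.0131) and fell by 1.15 afterwards (SE 0.248, adjusted p = 0.00568). The fall held in all 22 alternative fits, while the rise lost its call without either pregnancy array (adjusted p 0.0559 and 0.0571). Gpx1, the main cytosolic form, had signals of 165 and 224 at pregnancy and 273 and 277 at lactation and rose by 0.52 (SE 0.169, adjusted p = 0.0381), a call lost without any puberty or lactation array or pregnancy replicate 1 (adjusted p up to 0.181, with a change of 0.30 without the last of these).

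Gpx7 of the endoplasmic reticulum was dim throughout. Its signals were 36.8, 42.8 and 28.4 at puberty, 36.4 and 34.4 at pregnancy, 6.96 and 6.04 at lactation, and 17.5 and 22.3 at involution (F test adjusted p = 0.0101). Both lactation arrays were under the floor of 20, so Gpx7 was at least 1.77-fold lower at lactation than at pregnancy (adjusted p = 0.0143; up to 0.0683 and not called without pregnancy replicate 1 or 2 or lactation replicate 1). Gpx5, the epididymal form, was also near the floor. It gave 6.66, 21.2 and 23.0 at puberty, 37.3 and 34.6 at pregnancy, 59.5 and 37.3 at lactation, and 22.3 and 6.14 at involution (F test adjusted p = 0.00518). With 1 involution array under the floor, the size of its fall from lactation was set by the floor: -1.16 as tested (adjusted p = 0.00408), -2.01 with a floor of 1 (0.0472) and -0.13 with a floor of 50 (0.262). Gpx4, which reduces lipid hydroperoxides in membranes, kept stage means between 414 and 525 (F test adjusted p = 0.220).

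Catalase, the peroxisomal enzyme that splits hydrogen peroxide, had a deep minimum at lactation. Cat gave 444, 588 and 473 at puberty, 229 and 241 at pregnancy, 86.2 and 105 at lactation, and 446 and 494 at involution (F test adjusted p = 4.58e-05). Puberty and involution overlapped, while pregnancy and lactation each lay apart below them. Cat fell by 1.09 into pregnancy (SE 0.161, adjusted p = 0.00470) and by 1.30 into lactation (SE 0.177, adjusted p = 0.000713), and rose by 2.30 into involution (SE 0.177, adjusted p = 3.55e-05). Between puberty and involution the fitted change was -0.09 (SE 0.161, adjusted p = 0.833). The fall into pregnancy lost its call without pregnancy replicate 2 (adjusted p = 0.0504). The second Cat probe set, a family type that can bind related transcripts, did not show the pattern: it had 244 and 96.8 at lactation and 125 and 94.3 at involution, with changes of 0.00 into lactation and -0.50 out of it, neither called.

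Of the superoxide dismutases, the extracellular Sod3 was highest at puberty. Its signals were 753, 749 and 787 at puberty, 457 and 275 at pregnancy, 270.0 and 296 at lactation, and 509 and 651 at involution, with the puberty arrays above all others and pregnancy overlapping lactation (F test adjusted p = 0.00194). Sod3 fell by 1.11 into pregnancy (SE 0.208, adjusted p = 0.0110) and rose by 1.02 from lactation to involution (SE 0.228, adjusted p = 0.00670). The fall lost its call without pregnancy replicate 2 or either lactation array (adjusted p 0.0527 to 0.0759), and the rise without lactation replicate 1 or involution replicate 2 (0.0554 to 0.0698). Sod1, the cytosolic copper and zinc enzyme, gave 1155, 1282 and 1308 at puberty, 1120 and 717 at pregnancy, 1193 and 942 at lactation, and 1546 and 1759 at involution, where both arrays lay above all others (F test adjusted p = 0.0362). It rose by 0.64 from lactation (SE 0.218, adjusted p = 0.0412). This call ended without any array other than the 2 pregnancy arrays, with adjusted p up to 0.233. The mitochondrial Sod2 kept stage means of 121 to 161 (F test adjusted p = 0.235).

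Adipocyte markers ran with the low lactation signals of Gpx3, Cat and Sod3, of which Sod3 overlapped pregnancy. Of 11 adipocyte markers, 10 were higher and 1 was lower at involution than at lactation by the test. From pregnancy to lactation 7 of the 11 were lower and 1 was higher. Stroma and matrix markers ran the same way, with 8 of 11 higher out of lactation and 9 lower into it. Lymphocyte markers (9 of 9 higher at involution than at lactation, 5 lower at lactation than at pregnancy, 6 lower at pregnancy than at puberty) and macrophage markers (10 of 13 higher and 8 lower at the same lactation steps) ran the same way. The part of these cells in the signals of Gpx3, Cat and Sod3 was not tested. Muscle markers fell with the same genes between puberty and pregnancy, 13 of 13 tested. Of the 11 adipocyte markers, 5 were lower and 0 higher at that step, where 5.22% of all probe sets were lower. No stroma or macrophage marker was called there. The part of muscle and of fat cells in this fall was not tested.

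**Figure D2:**
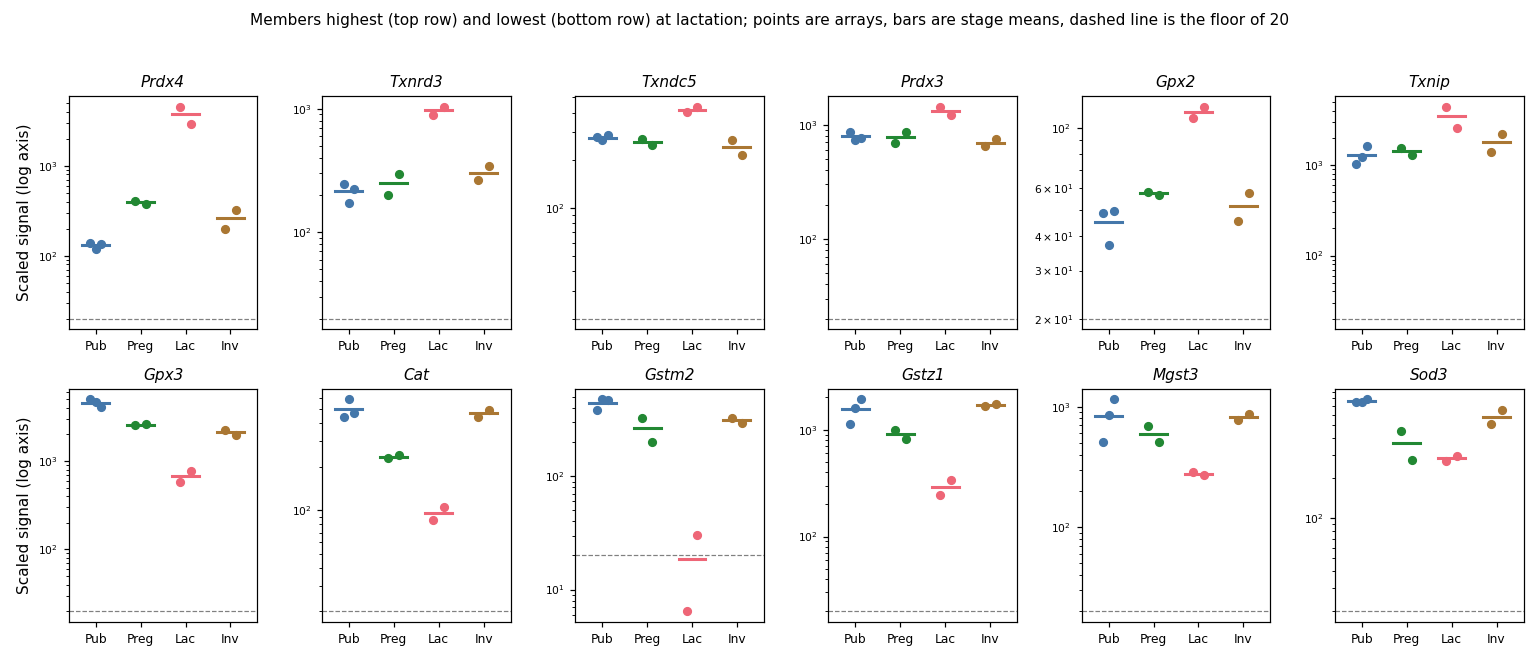
Scaled signal (log axis) of 12 genes on the 9 arrays, by stage; each point is 1 array, a bar marks a stage mean and a dashed line the value 20 to which lower signals were raised. The top row holds genes highest at lactation, Prdx4 with 4531 and 2927 there, and the bottom row genes lowest at lactation, Gstm2 with 6.44 and 30.6.

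All 3 peroxiredoxins passed the F test, which 51.6% of all probe sets passed. Prdx4 resides in the endoplasmic reticulum, where it passes oxidizing equivalents from peroxide to the enzymes that form disulfide bonds. It gave 139.6, 119.7 and 134 at puberty, 409 and 379 at pregnancy, 4531 and 2927 at lactation, and 199 and 321 at involution (F test adjusted p = 1.54e-05). No 2 stages overlapped, and the lower lactation array still exceeded the highest array of any other stage several times over. Prdx4 rose by 1.59 into pregnancy (SE 0.236, adjusted p = 0.00470) and by a further 3.21 into lactation (SE 0.258, adjusted p = 6.56e-05), and fell by 3.85 into involution (SE 0.258, adjusted p = 1.92e-05). Its highest and lowest stage means were 27.9-fold apart, the widest of the 47 genes with the floor of 20; with a floor of 1 the span of Gstm2, 4.99 on the log2 scale, exceeded the 4.80 of Prdx4. The changes into and out of lactation held in all 22 alternative fits. The rise into pregnancy lost its call without pregnancy replicate 1 or 2 (adjusted p 0.0547 to 0.0577). Prdx4 was 0.95 higher at involution than at puberty (SE 0.236, adjusted p = 0.0452), which was no longer called without any array other than involution replicate 1 (adjusted p 0.0747 to 0.274), and was 0.61 without involution replicate 2.

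The mitochondrial Prdx3 also had its maximum at lactation, at a smaller size. It gave 869.9, 739.5 and 769 at puberty, 699 and 868 at pregnancy, 1443 and 1222 at lactation, and 655 and 744 at involution, and the 3 stages outside lactation overlapped (F test adjusted p = 0.00524). Prdx3 rose by 0.77 into lactation (SE 0.162, adjusted p = 0.00588; 0.0749 after quantile normalization) and fell by 0.93 out of it (SE 0.162, adjusted p = 0.00205), and the fall held in all 22 alternative fits.

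Prdx2, the abundant peroxiredoxin of red blood cells, peaked earlier. It gave 832, 915 and 803 at puberty, 1471 and 1537 at pregnancy, 1022 and 1133 at lactation, and 944 and 1091 at involution (F test adjusted p = 0.00381). The pregnancy pair lay above all other arrays. Prdx2 rose by 0.83 into pregnancy (SE 0.124, adjusted p = 0.00482; 0.0517 without pregnancy replicate 2) and fell by 0.48 into lactation (SE 0.135, adjusted p = 0.0204), a fall lost without either pregnancy array or lactation replicate 1 (0.0590 to 0.0788). After quantile normalization the fall was -0.79. A second Prdx2 probe set rose by 0.99 into pregnancy (SE 0.268, adjusted p = 0.0486). Its change into lactation, -0.66 (SE 0.294, adjusted p = 0.104), was not called. The summed signal of 7 erythrocyte markers was 2460 to 4262 at puberty, 10373 to 12827 at pregnancy, 2347 to 2788 at lactation and 342 to 504 at involution. It was highest where Prdx2 was highest, with Epb42 and Hemgn at the floor in pregnancy. This sum was lowest at involution, whereas Prdx2 was lowest at puberty. The sum of the basal epithelial markers was also highest at pregnancy, although Krt5 and Krt14 were at the floor there and not at lactation. The part of these cells in the Prdx2 result was not tested.

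Of 6 thioredoxin system genes tested, 3 passed the F test, which 51.6% of all probe sets passed. These were Txnrd3, Txnip and Txnrd1. Each was highest at lactation, as were 44.09% of all probe sets past the F test. Txnrd3, a reductase that serves both thioredoxin and glutathione and is known from the testis, gave 248, 174 and 224 at puberty, 202 and 295 at pregnancy, 896 and 1040 at lactation, and 267 and 342 at involution (F test adjusted p = 0.000362). The lactation pair stood far above the rest, which overlapped except for involution and puberty. Txnrd3 rose by 1.98 (SE 0.239, adjusted p = 0.000401) and then fell by 1.68 (SE 0.239, adjusted p = 0.000708), and all its calls held in the 22 alternative fits. Its probe set carries a suffix of the manufacturer for probes chosen under relaxed rules, and its other probe set stayed under the filter.

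Txnip, which binds thioredoxin and holds it inactive, was bright and variable at lactation. It gave 1035, 1252 and 1634 at puberty, 1567 and 1298 at pregnancy, 4468 and 2594 at lactation, and 1387 and 2251 at involution, with lactation above every other array (F test adjusted p = 0.0178). Txnip rose by 1.26 (SE 0.328, adjusted p = 0.0151) and fell by 0.95 (SE 0.328, adjusted p = 0.0432). The rise lost its call without either pregnancy array or lactation replicate 1 (adjusted p 0.0631 to 0.152) and the fall without these, puberty replicate 2 or involution replicate 1 (0.0630 to 0.318). Quantile normalization gave 0.77 and -0.57 and the robust fit likewise ended both calls, and the fall was -0.55 without lactation replicate 1 and -0.60 without involution replicate 1. The brightest Txnip probe set carries a suffix for shared probes. A second Txnip probe set gave 0.37 and -0.35, neither called. Txnrd1, the cytosolic reductase, gave 207, 174 and 184 at puberty, 232 and 235 at pregnancy, 272 and 364 at lactation, and 243 and 222 at involution. It passed the F test (adjusted p = 0.0233), which it no longer did without puberty replicate 2 or 3 (0.0604 to 0.0709), and no single step passed.

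Txn1, the cytosolic thioredoxin, had 1691 and 1375 at pregnancy and 1230 and 945 at lactation and fell by 0.50 (SE 0.173, adjusted p = 0.0461), though not past the F test over the stages (adjusted p = 0.0606). The fall was no longer called without any array other than lactation replicate 1 (adjusted p 0.0513 to 0.237); it was -0.31 without lactation replicate 2 and, after quantile normalization, -0.78. Its mitochondrial counterpart Txn2 had stage means from 410.0 to 458 (F test adjusted p = 0.828), and the mitochondrial reductase Txnrd2 from 42.7 to 58.7 (0.288).

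The other genes with a thioredoxin domain include folding enzymes of the endoplasmic reticulum. Of these 7 genes, 4 passed the F test, which 51.6% of all probe sets passed. Txndc5, a disulfide isomerase of that compartment, gave 279.5, 268 and 288 at puberty, 271 and 250.2 at pregnancy, 401 and 436 at lactation, and 269 and 217 at involution (F test adjusted p = 0.00787). The lactation arrays lay above all others. Txndc5 rose by 0.68 (SE 0.149, adjusted p = 0.00686) and fell by 0.79 (SE 0.149, adjusted p = 0.00291), with every call kept in the 22 alternative fits.

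Txndc12, a small thiol enzyme of the same compartment, went the other way. It gave 103, 123 and 133 at puberty, 167 and 174 at pregnancy, 47.9 and 93.6 at lactation, and 156 and 151 at involution, so both lactation arrays were below all others (F test adjusted p = 0.0176). Txndc12 fell by 1.35 into lactation (SE 0.298, adjusted p = 0.00742; 0.0529 without pregnancy replicate 2) and rose by 1.19 into involution (SE 0.298, adjusted p = 0.0113; 0.0525 to 0.0689 without either involution array). Without lactation replicate 1 the changes were -0.86 and 0.71, still called.

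Txndc16, also of the endoplasmic reticulum, stayed high after puberty. It gave 122, 133 and 119.7 at puberty, 232 and 217 at pregnancy, 229 and 261 at lactation, and 219 and 275 at involution, with puberty below all later stages, which overlapped (F test adjusted p = 0.00162). Txndc16 rose by 0.85 into pregnancy (SE 0.153, adjusted p = 0.00959; 0.0662 to 0.0709 without either pregnancy array). It was 0.97 higher at involution than at puberty (SE 0.153, adjusted p = 0.00718; 0.0528 without involution replicate 2).

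Txndc9, a partner of the chaperonin that folds tubulin and actin, was likewise lowest at puberty. It gave 88.4, 92.9 and 96.5 at puberty, 140.0 and 157 at pregnancy, 166 and 172 at lactation, and 131 and 227 at involution (F test adjusted p = 0.0222). The difference of 0.90 between puberty and involution (SE 0.228, adjusted p = 0.0499) was no longer called without any array other than involution replicate 1 (0.0961 to 0.183), and was 0.50 without involution replicate 2. Txndc17, a cytosolic disulfide reductase, Txnl1, a partner of the proteasome, and Txnl4a, a component of the spliceosome despite its name, did not pass the F test (adjusted p 0.273, 0.580 and 0.0694).

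Of 12 soluble glutathione S-transferases tested, 7 passed the F test, which 51.6% of all probe sets passed. Gstz1, which in its best known role isomerizes maleylacetoacetate in the breakdown of tyrosine, gave 1138, 1604 and 1925 at puberty, 984 and 823 at pregnancy, 245 and 337 at lactation, and 1679 and 1734 at involution (F test adjusted p = 0.000210). Puberty and involution overlapped, pregnancy lay below them, and lactation was lowest. Gstz1 fell by 1.65 into lactation (SE 0.250, adjusted p = 0.00122) and rose by 2.57 into involution (SE 0.250, adjusted p = 0.000108), with every call kept in the 22 alternative fits.

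Gstm2, of the mu class, gave 388, 479.9 and 476 at puberty, 328 and 202 at pregnancy, 6.44 and 30.6 at lactation, and 330.1 and 298 at involution (F test adjusted p = 3.35e-05). One lactation array was under the floor and the other close to it. Gstm2 fell by 3.38 (SE 0.277, adjusted p = 6.77e-05) and rose by 3.66 (SE 0.277, adjusted p = 3.19e-05) on the floored log2 scale. The dimmer Gstm2 probe set had 30.5 and 32.5 at lactation and 89.3 and 60.5 at pregnancy, with changes of -1.22 and 0.52, neither called. Gstm6, Gstm3, Gstm2 and Gstm1 follow each other as protein-coding genes on the chromosome in RefSeq's table, and their transcripts are alike enough that probes can bind several of them.

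The probe sets of the other mu class genes disagreed with each other. The brightest Gstm1 probe set, a family type, gave 1454, 1928 and 2598 at puberty, 1229 and 1244 at pregnancy, 1428 and 1365 at lactation, and 2013 and 2932 at involution (F test adjusted p = 0.0400). It rose by 0.80 from lactation to involution (SE 0.267, adjusted p = 0.0381). This rise was no longer called without puberty replicate 2, either pregnancy array, either lactation array or involution replicate 2 (adjusted p 0.0571 to 0.227), and the value was 0.53 in the last of these fits. The second Gstm1 probe set had 226 and 192 at lactation and 75.2 and 82.5 at involution and fell by 1.40 (SE 0.202, adjusted p = 0.000762). For Gstm3, the brightest probe set did not pass the F test (adjusted p = 0.185), whereas its second gave 109 and 91.3 at pregnancy, 313 and 266 at lactation, and 61.1 and 108 at involution, with a rise of 1.53 (SE 0.300, adjusted p = 0.00406) and a fall of 1.83 (SE 0.300, adjusted p = 0.00146). Gstm5 was not past the F test on its brightest probe set (adjusted p = 0.312), and of its other 3 tested probe sets 1, close to the floor, passed (0.0193). The second probe sets of Gstm1 and Gstm3, like the dimmer one of Gstm2, carry the suffix for relaxed probe choice. No direction across the mu class can therefore be read at the level of single genes.

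**Figure D3:**
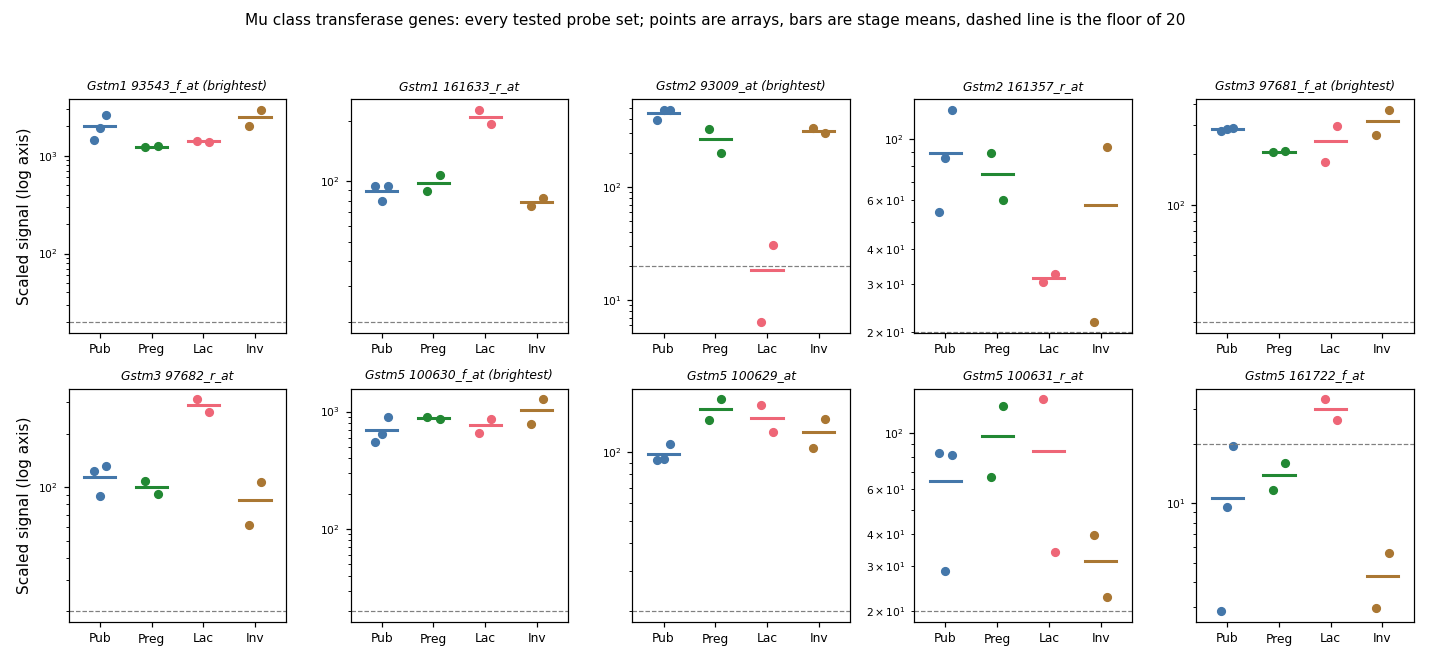
Scaled signal (log axis) of every tested probe set of Gstm1, Gstm2, Gstm3 and Gstm5 on the 9 arrays, by stage; each point is 1 array, a bar marks a stage mean and a dashed line the value 20 to which lower signals were raised. The second probe sets of Gstm1 and Gstm3 are highest at lactation, unlike the brightest probe set of the same gene.

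The alpha class was dim. Gsta2 gave 52.2, 32.9 and 46.4 at puberty, 53.8 and 70.3 at pregnancy, 124 and 89.0 at lactation, and 40.1 and 59.0 at involution, with lactation above the other arrays (F test adjusted p = 0.0286). It fell by 1.11 into involution (SE 0.331, adjusted p = 0.0239; 0.142 to 0.143 without lactation replicate 1 or involution replicate 1). Gsta3, known in the mouse for conjugating the aflatoxin epoxide, gave 21.4, 18.1 and 26.7 at puberty, 34.5 and 28.3 at pregnancy, 30.5 and 40.2 at lactation, and 37.6 and 72.0 at involution (F test adjusted p = 0.0393). It was 1.21 higher at involution than at puberty (SE 0.294, adjusted p = 0.0428), a call that ended without any array other than involution replicate 1 (0.0683 to 0.210). The value was 0.74 without involution replicate 2 and 0.26 with a floor of 50. Gsta4, which conjugates the lipid peroxidation product hydroxynonenal, was under the floor on both lactation arrays, 7.27 and 9.01, and at 46.4 and 31.1 at involution. It was at least 1.90-fold higher at involution than at lactation (adjusted p = 0.0357), which was no longer called without either pregnancy array, either lactation array or involution replicate 1 (0.0519 to 0.216), and it did not pass the F test (adjusted p = 0.110).

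Gstt1, of the theta class, gave 90.2, 160.1 and 184 at puberty, 77.1 and 90.4 at pregnancy, 25.0 and 101 at lactation, and 266 and 282 at involution (F test adjusted p = 0.0288). The involution pair lay above all other arrays. Gstt1 rose by 2.45 from lactation to involution (SE 0.578, adjusted p = 0.00889), a value that rested on the unequal lactation pair: it was 1.44 (adjusted p = 0.0551) without lactation replicate 1 and 3.45 without lactation replicate 2. The call was also lost without either involution array (adjusted p up to 0.0670). Gstp1, the pi class enzyme, moved little, with 948, 966 and 922 at puberty, 817 and 723 at pregnancy, 718 and 673 at lactation, and 877 and 873 at involution (F test adjusted p = 0.0316). It rose by 0.33 from lactation to involution (SE 0.120, adjusted p = 0.0496), a call lost without any puberty or involution array or lactation replicate 2 (0.0509 to 0.0809). Gstt2 (F test adjusted p = 0.134), with stage means of 124 to 195, and Gsto1 (0.279), which reduces dehydroascorbate, with 352 to 546, did not pass.

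Of the 3 microsomal transferases, which sit in membranes, 2 passed the F test, which 51.6% of all probe sets passed. Mgst3 gave 506, 852 and 1153 at puberty, 688 and 507 at pregnancy, 288 and 269.5 at lactation, and 776 and 874 at involution (F test adjusted p = 0.0102). The lactation pair lay below all the other arrays. Puberty overlapped both pregnancy and involution, which did not overlap each other. Mgst3 fell by 1.08 into lactation (SE 0.330, adjusted p = 0.0286) and rose by 1.56 into involution (SE 0.330, adjusted p = 0.00520). The fall lost its call without any pregnancy, lactation or involution array (0.0577 to 0.190), and the rise without either lactation array (0.0576 to 0.0643). Mgst2, which can make leukotriene C4, gave 42.4, 115 and 100.2 at puberty, 31.6 and 27.7 at pregnancy, 28.7 and 20.5 at lactation, and 57.0 and 79.3 at involution (F test adjusted p = 0.0197). It rose by 1.47 from lactation to involution (SE 0.459, adjusted p = 0.0287), a call that ended without any array other than those of puberty (0.0590 to 0.188) and with a floor of 50, where the change was 0.43. Mgst1, which guards the membranes of the endoplasmic reticulum and the outer mitochondrial membrane, had stage means of 998 to 1174 (F test adjusted p = 0.742).

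Adipocyte and stroma markers were also lowest where Gstz1, Gstm2, Mgst3 and Txndc12 were lowest, with 9 of 11 stroma and matrix markers lower at lactation than at pregnancy, and so were the lymphocyte and macrophage sums. The sum of the secretory and luminal markers was highest where Prdx4, Prdx3, Txnrd3, Txndc5, Gpx2 and Txnip were highest, while of its 12 genes 6 rose and 4 fell into lactation and 2 rose and 6 fell out of it. The part of these cells in the signals was not tested.

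Hmox1 breaks down heme, and Nqo1 reduces quinones; both are classical genes of the oxidant response. Hmox1 gave 529.8, 454 and 357 at puberty, 427 and 364 at pregnancy, 491 and 456 at lactation, and 584 and 811 at involution, with the involution arrays above all others. It passed the F test (adjusted p = 0.0495) but no single step, and the F call was lost with the deposited scale, 75th percentile scaling or quantile normalization (adjusted p 0.0624 to 0.0906) and without any array except puberty replicates 1 and 3 (0.0529 to 0.286). The macrophage sum was also highest at involution, with Itgam at the floor there, and so was the lymphocyte sum. The part of these cells in the Hmox1 signal was not tested. Nqo1 was near or under the floor, with 11, 15.5 and 16 at puberty, 21.7 and 18.3 at pregnancy, 2.49 and 2.12 at lactation, and 40.5 and 32.6 at involution (F test adjusted p = 0.00308). Only the involution arrays rose clearly above 20, and Nqo1 was at least 1.82-fold higher there than at lactation (adjusted p = 0.00208) and than at puberty (adjusted p = 0.00777); the robust fit and a floor of 50 gave neither call, and a floor of 1 did not give that against puberty (0.0980). This probe set carries the suffix for relaxed probe choice. The second Nqo1 probe set, a family type with 6.96 and 16.9 at lactation and 16.2 and 24.3 at involution, gave changes of 0.14 in both comparisons, neither called.

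Set out by step, puberty to pregnancy moved few of the genes. Prdx4, Prdx2 and Txndc16 rose and Cat, Gpx3 and Sod3 fell, so that 6 of 47 were called (12.8%), against 11.4% of all probe sets tested, with 3 up (all probe sets 6.2%) and 3 down (5.22%). The median log2 change was -0.01 for the 47 and 0.00 for all probe sets. Without pregnancy replicate 1 the count was 3, with 4.91% of all probe sets called. Without pregnancy replicate 2 it was 0 by limma's adjusted p, with 8 genes at an unadjusted p under 0.05; a plain contrast per probe set also called 0, with 9 unadjusted. In that fit 2.94% of all probe sets were called.

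Pregnancy to lactation changed 17 of the 47 (36.2%), against 41.2% of all probe sets. The 8 that rose were Prdx4, Txnrd3, Txnip, Gpx2, Prdx3, Txndc5, Gpx1 and Gss (all probe sets 21.6%). The 9 that fell were Gstm2, Gpx3, Gstz1, Txndc12, Cat, Mgst3, Gpx7, Txn1 and Prdx2 (all probe sets 19.7%). The median change was 0.07 for the 47 and 0.07 for all probe sets. The count was 9 without pregnancy replicate 1 and 10 without pregnancy replicate 2, with 26.2% and 28.7% of all probe sets called, and after quantile normalization 5 rose and 9 fell. Calls ended for Gss (adjusted p = 0.0983) and Gpx1 (0.100) on the deposited scale, for Txn1 with 75th percentile scaling, and for Gpx1 (0.0539), Prdx3 and Txnip after quantile normalization.

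Lactation to involution changed 24 of the 47 (51.1%), against 45.1% of all probe sets. Higher at involution were 15 genes (31.9%), where 22.1% of all probe sets and 24.4% of 7090 genes on their brightest probe set were. They were Gstm2, Gstz1, Gstt1, Cat, Gpx3, Mgst3, Mgst2, Txndc12, Gsr, Sod3, Gsta4, Nqo1, Gstm1, Sod1 and Gstp1 (for Gstm1, the second probe set fell). Lower were 9 genes (19.1%), where 23% of all probe sets and 21.6% of the 7090 genes were. These 9 were Prdx4, Txnrd3, Gpx5, Gpx2, Gsta2, Txnip, Prdx3, Txndc5 and Gss. The median change was 0.13 for the 47 and -0.03 for all probe sets. Without lactation replicate 1 the count was 15, with 38.1% of all probe sets called, and 75th percentile scaling ended the calls for Gstm1 (adjusted p = 0.0567), Gstp1 (0.0822) and Sod1 (0.0546). This step shares its lactation arrays with the one before, so that 1 unusual lactation array would move both.

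**Figure D4:**
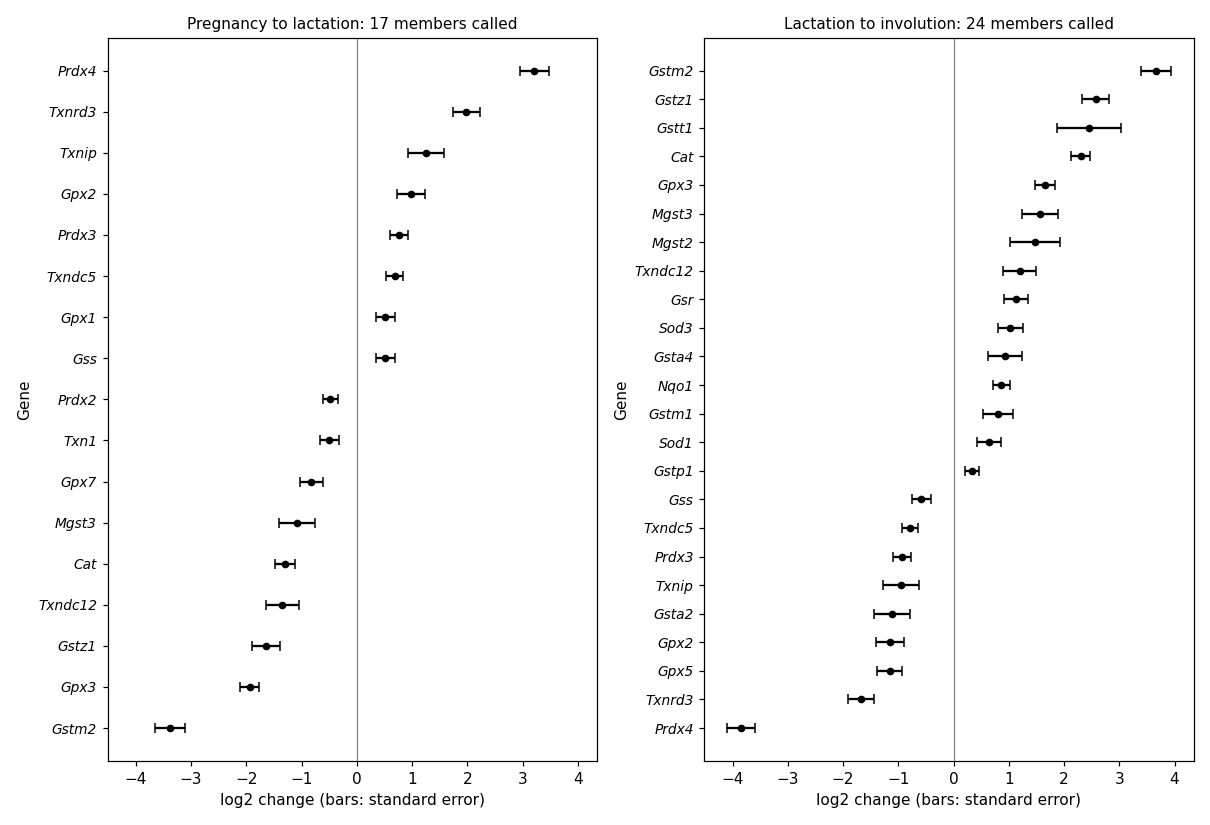
Log2 change with its standard error for each gene called from pregnancy to lactation (left, 17 genes) and from lactation to involution (right, 24 genes). Prdx4 and Gstm2 lie at the ends of both panels, on opposite sides; both panels use the same lactation arrays.

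Between puberty and involution 6 of the 47 were called (12.8%), against 7.48% of all probe sets. Gsta3, Prdx4, Nqo1, Txndc16 and Txndc9 were higher at involution (5 genes; all probe sets 4.39%) and Gpx3 was lower (1 gene; all probe sets 3.1%). The count was 3 without puberty replicate 1 or 2, without either pregnancy array or without either lactation array, and 1 without involution replicate 2, with 3.79% to 5.73% of all probe sets called in the former fits and 2.5% in the latter. With the deposited scale or 75th percentile scaling the split was 2 higher and 2 lower. Prdx4, Txndc9 and Gsta3 were then no longer called (adjusted p 0.0509 to 0.0700) and Gpx7 was. Quantile normalization also ended the calls of Prdx4 (0.0644) and Txndc9 (0.0667).

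**Figure D5:**
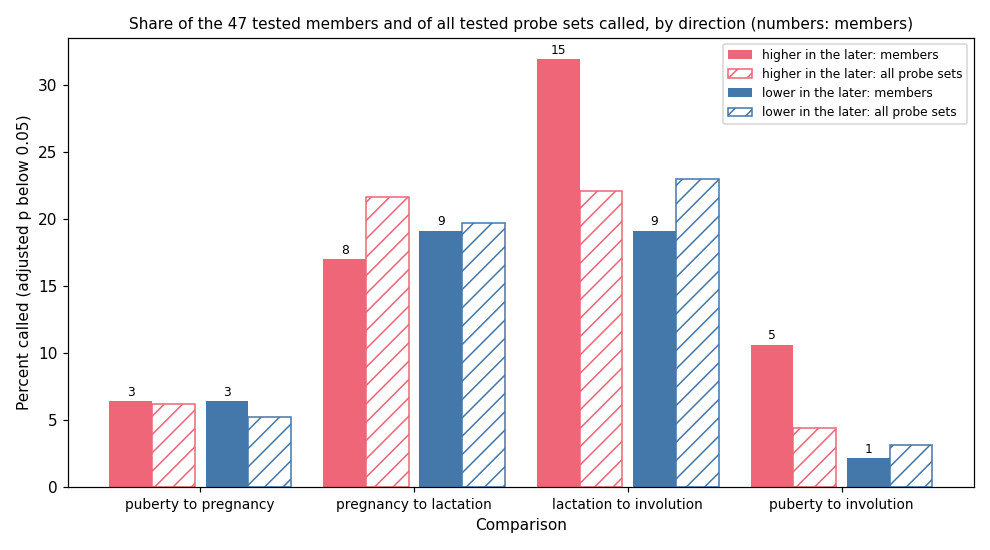
Percent of the 47 tested genes (filled bars, with their number) and of all 9783 tested probe sets (hatched bars) called in each comparison, by direction. From lactation to involution 31.9% of the genes were higher at involution against 22.1% of all probe sets. Of 7090 genes on their brightest probe set, not drawn, 24.4% were higher.

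The genes around these enzymes were read from 4 lists of pathway genes, and each change of theirs named here as a rise or fall passed limma's test at an adjusted p under 0.05; no alternative fits were run for them. Over all probe sets, 51.6% passed the F test, 21.6% rose and 19.7% fell into lactation, and 22.1% rose and 23% fell out of it; the counts of the lists are given against these shares. Among 11 tested regulators of the antioxidant response, 7 passed the F test, with 2 up and 1 down into lactation and 3 up and 3 down out of it, and medians of 0.45 and -0.14. The smallest adjusted p belonged to Arnt (0.00141), the partner of the aryl hydrocarbon receptor, to that receptor Ahr (0.00214), to the small Maf protein Mafk (0.00277) and to Foxo3 (0.00482). Ahr, with stage means of 23.7, 67.6, 18.6 and 60.8 from puberty to involution, was under the floor on both lactation arrays, so it was at least 3.24-fold lower there than at pregnancy and at least 3.03-fold lower than at involution. Arnt fell by 1.39 into involution, Mafk rose by 1.12 into lactation and Foxo3 rose by 1.15 into pregnancy. Nfe2l2, named outside this rule after its values were seen, gave 233, 235 and 233 at puberty, 237 and 244 at pregnancy, 259 and 262 at lactation, and 393 and 337 at involution, and rose by 0.48 into involution (SE 0.133, adjusted p = 0.0178). Its repressor Keap1 did not pass the filter.

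Among 23 other genes of glutathione and redox metabolism, 17 passed the F test, with 8 up and 6 down into lactation and 6 up and 7 down out of it, and medians of -0.01 and -0.07. Glutaredoxin, Glrx, which reduces mixed disulfides with glutathione, rose by 2.66 into lactation and fell by 2.45 afterwards. Msrb1, a methionine sulfoxide reductase, rose by 2.06 and fell by 1.72. Sesn1, a sestrin, fell by 1.62 and rose by 2.20. Slc3a2, the heavy chain of the cystine and other amino acid exchangers, rose by 0.97 into lactation (adjusted p = 0.00157) and had stage means of 1440 at lactation and 1371 at involution. The cystine carrier Slc7a11 and Slc1a1 did not pass the filter.

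Of 9 genes that supply NADPH, 5 passed the F test, with 2 up and 3 down into lactation and 3 up out of it. The isocitrate dehydrogenases fell into lactation, Idh1 by 1.42 and Idh2 by 1.39, and rose out of it by 1.99 and 1.23. Tkt, of the pentose phosphate pathway, fell by 0.89 and rose by 1.51, whereas Me1, the cytosolic malic enzyme that serves fat synthesis, rose by 1.49 into lactation. The median of the 9 was 0.02 into lactation and -0.09 out of it.

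Of 14 enzymes that make superoxide or hydrogen peroxide, 9 passed the F test, with 3 up and 4 down into lactation and 5 up and 3 down out of it. Qsox1, a secreted sulfhydryl oxidase that forms disulfides and releases peroxide, had stage means of 113, 121, 8948 and 155, and rose by 6.22 on the log2 scale into lactation and fell by 6.05 out of it. Xdh, xanthine dehydrogenase and a protein of the milk fat globule, rose by 3.30 and fell by 3.26. Cyp2e1 fell by 1.42 into pregnancy and by 1.76 into lactation and rose by 1.30 into involution, and Ncf4, of the phagocyte oxidase, was under the floor at lactation, at least 2.96-fold lower than at pregnancy and at least 4.66-fold lower than at involution. The median of the 14 was -0.57 into lactation and 0.52 out of it, where all probe sets had 0.07 and -0.03.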

How the data were processed

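The deposited values are a linear intensity for each probe set on each array, which the submitters' processing notes credit to MAS5 (version not given in the sources used here). Control probe sets were left out, the 9 arrays were scaled to equal medians over 12422 probe sets, a floor of 20 was applied before the log2 step; printed signals are scaled without the floor. Probe sets with a stage mean above 20 in at least 1 stage (9783) were tested with limma 3.58.1 in R 4.3.3 (lmFit, eBayes with a trend): an F test over the 4 stages and 4 contrasts, with p-values adjusted by Benjamini-Hochberg over all 9783 within each. Per-array scale factors were 0.948 to 1.06, and between 13.2 and 15.5% of tested probe sets lay at the floor. Only 2 or 3 arrays a stage limit the precision. Symbols came from the platform annotation, and promoters and gene order from RefSeq tables of GRCm38.p6. Every gene found by the symbol rule is accounted for, with signals and the F test p for those past it; of each pathway list, up to 4 genes with the smallest F test p were named. Genes and lists were chosen with earlier results of these data known. Of 14 genes with over 1 probe set, 10 had over 1 tested; 8 of the brightest probe sets carry a suffix for shared or relaxed probe choice. The fit was tested on simulated data. Python 3.11.15, pandas 2.3.3 and matplotlib 3.10.9 drew the figures.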

Additional observations from a re-analysis of the deposited data

How the results depend on the processing

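Of 83 calls for single genes, 22 kept their side of the threshold in all 22 alternative fits and 33 in all fits that used every array. The number of genes differing over the stages was 30, and 17 with a floor of 50, 19 with no filter and 17 with a plain analysis of variance; of all probe sets 37.1%, 33.4% and 39.4% passed there, against 51.6%. From puberty to pregnancy it was 6, and 19 in a robust fit (29.2% of all probe sets). From puberty to involution it was 6, and 2 with a floor of 50, 3 with no filter, 15 in the robust fit and 3 with the plain analysis of variance; of all probe sets 4.91%, 3.65%, 23.7% and 3.24% were called there, against 7.48%. With the replicate block it was 3, and the other counts stayed within 1.5 times. Deviations from stage means correlated between -0.153 and 0.049 for equal replicate numbers. In a stage of 2 arrays the 2 deviations mirror each other, so these values cannot show whether the numbers paired the samples. The causes of the shifts in the counts were not tested. The share of all probe sets called moved the same way in each. Leaving out each array in turn gave 18 to 27 over the stages, 0 to 8 from puberty to pregnancy, 9 to 16 from pregnancy to lactation, 15 to 22 from lactation to involution and 1 to 6 between puberty and involution. With the dimmest tested probe set of each gene the direction turned for Cat (0.000415 into lactation, -0.50 out of it), Gss (-0.56 and 1.16) and Gstm1 (-1.40 out of lactation). With a floor of 50, Gpx7, Gsta4 and Nqo1 lay at the floor on both sides of their called comparisons and gave no difference. The other alternatives turned the direction of no called gene. Signals under the floor of 20 have no order.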
